A study of Mus musculus with 8 samples.

Results

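The genes examined here encode the proteins of the mitochondrial ribosome, the particle inside mitochondria that translates the few messages carried by mitochondrial DNA into core subunits of the respiratory chain. They were taken by name, as every gene with the symbol Mrpl (large subunit) or Mrps (small subunit) followed by a number and an optional letter, and with a probe set assigned to that gene alone. This gave 74 of the 18820 genes compared, on 87 probe sets, and of several probe sets for a gene the brightest on average was kept. A further 4 genes of this kind, Mrpl24, Mrpl43, Mrpl53 and Mrps6, had only probe sets assigned to several genes and were not analysed here.

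RNA came from white adipose tissue of 8 male mice on a mixed C57BL/6N and C57BL/6J background, each on 1 array, after 5 weeks on a high fat diet (Research Diets D12492). The 4 control mice were wildtype (WT), and the other 4 came from crosses of Sel1l flox/flox mice with mice whose Cre is driven by the adiponectin promoter. The Sel1l protein is a partner of the ubiquitin ligase Hrd1, through which misfolded proteins leave the endoplasmic reticulum (ER) for degradation. The labels call the second group Sel1l-/-, but that promoter acts in adipocytes and the tissue also holds cells of other types, and the labels do not say whether the WT mice carried flox alleles or Cre, nor from which depot or at which age the fat was taken.

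All mitochondrial ribosomal proteins are encoded in the nucleus, translated in the cytosol and imported, and they assemble on ribosomal RNA made from mitochondrial DNA. Many descend from proteins of the bacterial ribosome, while others were added in the mitochondrial lineage and have no counterpart in bacteria. White adipocytes hold few mitochondria beside brown ones, but depend on them for lipid and amino acid metabolism. In bulk tissue a lower value can come from fewer cells of a type or from less RNA per cell, and these cannot be told apart.

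Sel1l itself was read first, as a check of the labels. The WT arrays averaged 10.57 ± 0.07 on the log2 scale and the Sel1l-/- arrays 9.78 ± 0.21 (SD, n = 4), without overlap (log2 difference -0.79, limma adjusted p = 0.0109). Mice carry a code of a letter and numbers in the labels. Sel1l did not pass when the code's first number was a block (-0.80, limma adjusted p = 0.0813). The difference was -0.84, -0.75 and -0.80 within numbers 5, 7 and 9. Its standard error was 0.105 without a block and 0.126 with the number as a block. Nor did Sel1l pass with the letter as a block (-0.98). Only letter F held both genotypes, so that fit compares 1 WT with 2 Sel1l-/- mice, and the lost call cannot be laid to the letter. The median of an array over all 35556 probe sets was 6.05 to 6.08 for WT and 6.10 to 6.14 for Sel1l-/- mice, without overlap. All 8 fixed adipocyte markers were measured at a mean log2 intensity of 12.5 to 12.8 on the WT and 12.2 to 12.6 on the Sel1l-/- arrays, and the 6 skeletal muscle markers at 5.01 to 5.13 and 4.90 to 5.14. Groups of 4 mice limit the precision of each comparison.

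Upstream sequence is shown for the 2 higher and the 2 lower members with the smallest p among the 65 members that matched a window in the RefSeq promoter table (GRCm38.p6). Mrpl13, Mrpl15, Mrpl19, Mrpl38, Mrpl4, Mrpl54, Mrps28, Mrps34 and Mrps35 had no match. Each line gives the 250 bases before the annotated start, 5′ to 3′ on the gene's own strand. Capitals mark letters of the motifs searched on both strands.
Mrps18b: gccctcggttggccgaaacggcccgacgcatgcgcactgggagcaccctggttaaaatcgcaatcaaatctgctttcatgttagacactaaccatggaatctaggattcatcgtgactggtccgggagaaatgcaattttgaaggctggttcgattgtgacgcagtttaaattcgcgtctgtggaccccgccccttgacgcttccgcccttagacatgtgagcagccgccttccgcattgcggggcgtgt
Mrps10: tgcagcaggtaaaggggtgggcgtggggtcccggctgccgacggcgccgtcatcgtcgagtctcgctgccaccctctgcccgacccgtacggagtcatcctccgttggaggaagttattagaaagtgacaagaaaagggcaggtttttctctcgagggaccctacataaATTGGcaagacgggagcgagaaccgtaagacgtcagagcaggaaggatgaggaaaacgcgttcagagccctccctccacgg
Mrpl36: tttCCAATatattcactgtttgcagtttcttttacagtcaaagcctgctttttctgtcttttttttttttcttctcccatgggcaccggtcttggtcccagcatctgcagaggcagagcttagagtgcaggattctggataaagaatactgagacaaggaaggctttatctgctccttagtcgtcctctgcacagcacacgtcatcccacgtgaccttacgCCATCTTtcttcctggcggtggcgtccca
Mrpl28: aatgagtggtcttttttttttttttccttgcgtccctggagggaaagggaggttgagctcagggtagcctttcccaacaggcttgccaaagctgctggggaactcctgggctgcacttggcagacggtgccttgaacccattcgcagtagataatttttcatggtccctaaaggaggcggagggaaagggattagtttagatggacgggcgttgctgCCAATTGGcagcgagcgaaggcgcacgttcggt
The first stretch is chr17:35916441-35916690 on the minus strand, and the others lie on the plus strand at chr17:47368947-47369196, chr13:73330759-73331008 and chr17:26123253-26123502. The stretch of Mrps18b holds no searched motif, although an ETS match lies 43 bases past its start. Mrps10 holds 1 CCAAT match, Mrpl36 holds 1 CCAAT and 1 YY1 match, and Mrpl28 holds 2 CCAAT matches that share bases.

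Over the whole 300-base windows, which run 50 bases past the start, the letters CCGGAAG of ETS factors such as GABPA were in 24 of the 71 member windows (33.8%) and in 8.86% of all 32851 windows. The motif of NRF1, a nuclear regulator of mitochondrial genes, was in 13 (18.3%) against 4.6% of all windows. The letters AAGATGG of YY1 were in 13 (18.3%) against 6.34%. CCAAT was in 29 (40.8%) against 37.4%. The letters TGATGNAAN of the ATF4 and CEBP composite site were in 0 of 71 windows against 3.95%, which says only that these letters are not in these windows. The median GC content was 58.3% in member windows and 52.7% in all. A match is a stretch of letters and not a site shown to be bound. These motif counts describe the promoters and use no expression value.

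Of the 74 members, 1 rose and 0 fell in Sel1l-/- mice at a limma adjusted p under 0.05 over all genes. At that threshold 324 genes, or 1.72% of all genes tested, were called, with 1.04% higher and 0.685% lower, so a count of 1 in 74 lies near the background. With the replicate number as a block, a pairing that no label states, 2 members and 725 genes were called. Blocking by the first number of the mouse code left 0 members and 11 genes, and 0 members passed without WT 1, WT 2 or Sel1l-/- 2. Blocking by the code's letter compares only 1 WT with 2 Sel1l-/- mice, since the other letters hold 1 genotype each. Calls lost in that fit cannot be laid to the letter. Without adjustment, 5 members were higher and 6 lower at a limma p under 0.05, where 15.0% of all genes reached that p, 7.15% higher and 7.85% lower. The 4 Sel1l-/- arrays lay wholly above the 4 WT arrays in 6 members and wholly below in 2, or 10.8% of members, where 10.3% of all genes had arrays without overlap, 5.22% above and 5.07% below. The members' differences ran from -0.27 to 0.54 on the log2 scale, with quartiles of -0.09 and 0.05 and a median of -0.03, against quartiles of -0.10 and 0.09 and a median of -0.0037 over all genes. A log2 difference of Sel1l-/- minus WT is meant throughout.

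The intervals show how much change these 8 arrays would still allow. The 95% interval of the limma difference lay within a 1.2-fold change either way for 33 of the 74 members and within a 1.5-fold change for 72. Of all 18820 genes, 7149 had an interval within 1.2-fold and 15883 within 1.5-fold. The members' interval lay within a 2-fold change for all 74, where 17973 of all 18820 genes had so narrow an interval. The members whose interval reached past 1.5-fold were Mrps28 and Mrps18b, both on the higher side. The median standard error was 0.08 for members and 0.09 for all genes.

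**Figure D1:**
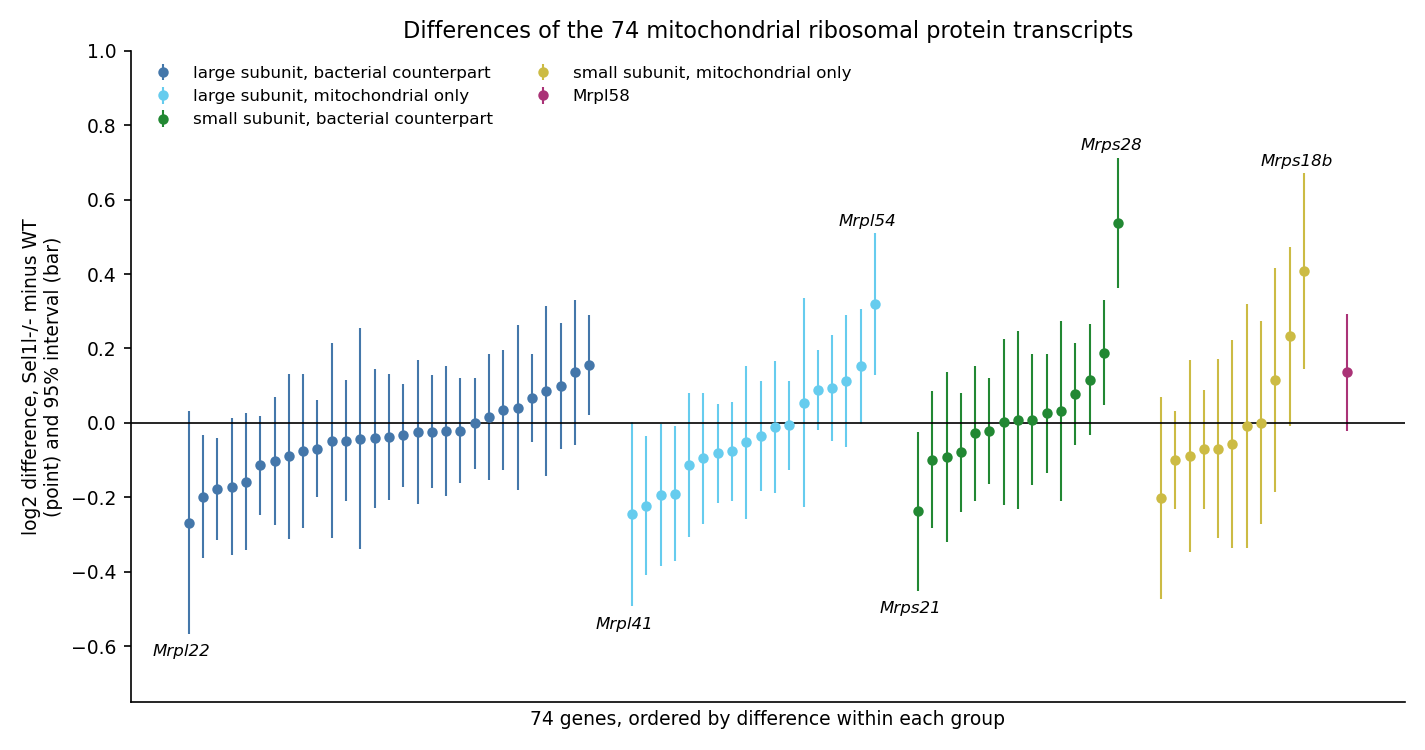
Log2 difference between 4 Sel1l-/- and 4 WT mice for each of the 74 genes, ordered within role groups, with the 95% limma interval as a bar. Most intervals cross 0, the points run from -0.27 to 0.54, and the interval of Mrps28 (0.36 to 0.71) lies farthest above 0.

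Mrps28, a small subunit protein that corresponds to part of the largest bacterial small subunit protein, was the member that rose. Its log2 intensity was 7.65, 7.58, 7.60 and 7.61 in WT 1 to 4 and 8.33, 8.19, 8.05 and 8.02 in Sel1l-/- 1 to 4. The WT mice lay close together, and each Sel1l-/- mouse lay above all of them. The means were 7.61 ± 0.03 and 8.15 ± 0.14 (SD, n = 4), a 1.45-fold higher level in Sel1l-/- mice (log2 difference 0.54, standard error 0.08, limma adjusted p = 0.0156). The direction held in all 16 alternative fits (0.48 to 0.65). Some could not change it: blocking by replicate number, leaving out dim genes, a trended robust variance and, with 1 probe set, averaging probe sets. As the groups did not overlap, leaving out 1 array, array weights and a block by code letter or number could not turn it either. The held direction therefore adds no support. The call did not hold in 5 of the 16 fits. Among them were the fits blocked by code letter (difference 0.65) or by code number (limma adjusted p = 0.103). The others left out WT 1, WT 2 or Sel1l-/- 2 (limma adjusted p = 0.0528, 0.0579 and 0.0637). The code's letters put WT 1 to 3 under E, WT 4 with Sel1l-/- 1 and 2 under F and Sel1l-/- 3 and 4 under G. The letter block therefore compares only the mice under F. Mice that share letter F differed by 0.65, and mice that share number 5, 7 or 9 by 0.42, 0.60 and 0.59.

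**Figure D2:**
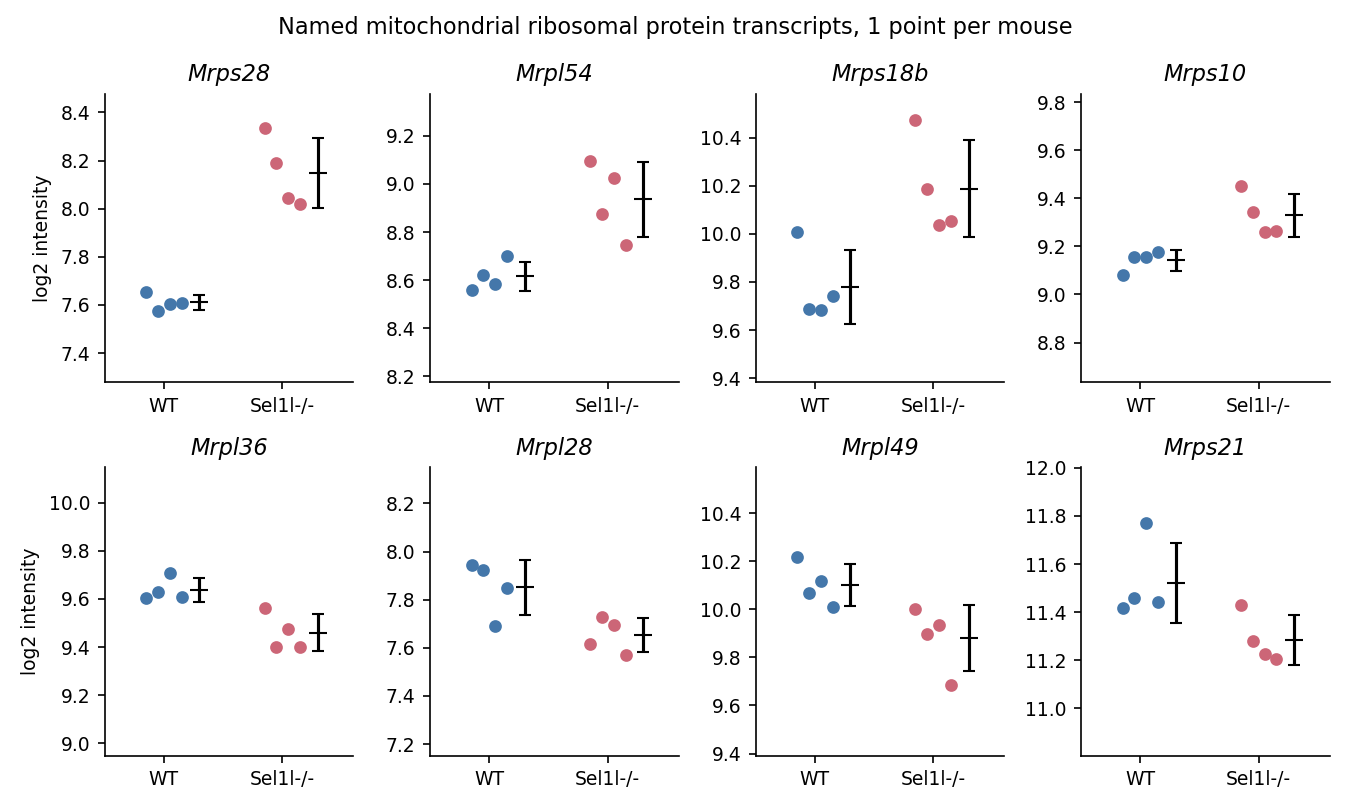
Log2 intensity of 8 members, with 1 point per mouse and the mean ± SD of 4 mice beside each group; every panel spans the same log2 range. In Mrps28 the Sel1l-/- mice (8.02 to 8.33) lie clear of the WT mice (7.58 to 7.65), while in Mrpl28 and Mrps21 the groups overlap.

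The small subunit held 26 members, with a median log2 difference of -0.0041 and equal numbers above and below 0 (13 each). Among its 15 members with a bacterial counterpart, Mrps10, a protein of the small subunit head, read 9.08, 9.16, 9.16 and 9.17 in WT 1 to 4 and 9.45, 9.34, 9.26 and 9.26 in Sel1l-/- 1 to 4. The groups did not overlap, but the difference of 0.19 (standard error 0.06) did not pass (limma adjusted p = 0.199). Its dimmer probe sets gave 0.20 and 0.28. Mrps21, also with a bacterial counterpart, read 11.42, 11.46, 11.77 and 11.44 in WT and 11.43, 11.28, 11.22 and 11.20 in Sel1l-/- mice. The highest value was that of WT 3, and Sel1l-/- 1 lay among the WT mice (difference -0.24, limma adjusted p = 0.282). Mrps5, a protein on the path by which messenger RNA enters the small subunit, gave a difference of 0.0028 with a 95% interval of -0.22 to 0.23.

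Mrps18b is 1 of 3 mouse relatives of a single bacterial small subunit protein and sits at a site of its own. It read 10.01, 9.69, 9.68 and 9.74 in WT 1 to 4 and 10.47, 10.19, 10.04 and 10.05 in Sel1l-/- 1 to 4. WT 1 lay well above the other WT mice and just under the lowest Sel1l-/- mouse, so the groups did not overlap. The difference was 0.41 (standard error 0.12, limma adjusted p = 0.137), and it passed with the replicate number as a block (limma adjusted p = 0.0293). That block rests on a pairing that no label states. Its relative Mrps18c, which holds the bacterial position, differed by -0.10 (limma adjusted p = 0.633), and Mrps18a, which sits in the large subunit, by 0.09 (limma adjusted p = 0.548). These 3 related genes thus gave no shared direction past the threshold.

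Of the 11 small subunit members without a bacterial counterpart, Mrps18b counted among them, 0 passed. Mrps23 read 8.99, 8.76, 8.66 and 9.14 in WT and 9.09, 9.21, 9.11 and 9.06 in Sel1l-/- mice, with WT 4 above 3 of the Sel1l-/- mice (difference 0.23, limma adjusted p = 0.351). Mrps25 differed by -0.10 (limma adjusted p = 0.484). Mrps36, whose product has since been assigned to the 2-oxoglutarate dehydrogenase complex, differed by -0.20 (limma adjusted p = 0.489). Mrps33 gave -0.07, and its dimmer probe set -0.08.

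The large subunit held 47 of the members, of which 33 had a difference below 0, with a median of -0.04. Despite their symbols, Mrps18a and Mrps30 were counted in it. Of its 29 members with a bacterial counterpart, 0 passed and 21 lay below 0. Mrpl36, a small zinc-binding protein, read 9.60, 9.63, 9.71 and 9.61 in WT and 9.56, 9.40, 9.48 and 9.40 in Sel1l-/- mice. All Sel1l-/- mice lay below all WT mice, but the difference of -0.18 (standard error 0.06) did not pass (limma adjusted p = 0.208). RefSeq places Mrpl36 beside Ndufs6, a subunit of complex I on the opposite strand, which gave -0.25 (limma adjusted p = 0.270). Mrps18b lies beside Ppp1r10 in the same arrangement, and Ppp1r10 gave -0.09 (limma adjusted p = 0.806). Mrpl49 and Fau, which encodes a protein of the cytosolic ribosome, also lie so, and Fau gave -0.04 (limma adjusted p = 0.770).

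Mrpl28 read 7.94, 7.92, 7.69 and 7.85 in WT and 7.62, 7.73, 7.69 and 7.57 in Sel1l-/- mice, with WT 3 inside the Sel1l-/- range (difference -0.20, limma adjusted p = 0.248). Mrpl22, which lines the tunnel through which the new protein leaves, read 6.72, 6.75, 7.16 and 7.08 in WT and 6.86, 6.40, 6.66 and 6.71 in Sel1l-/- mice. Its difference of -0.27 was the lowest of all members, but the groups overlapped and the spread was wide (standard error 0.13, limma adjusted p = 0.393). Mrpl23, which sits at the tunnel exit, gave 0.16 on both of its probe sets (limma adjusted p = 0.267). These probe sets ran in parallel over the arrays, at 10.28 and 10.16 in WT 1 and 10.56 and 10.44 in Sel1l-/- 1. Their equal differences are therefore not separate readings. Of the stalk that recruits translation factors, the anchor Mrpl10 gave 0.14 (limma adjusted p = 0.523) and Mrpl12 gave -0.03 (limma adjusted p = 0.925).

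Of the 18 large subunit members without a bacterial counterpart, Mrps18a counted among them, 0 passed and 12 lay below 0. Mrpl54 read 8.56, 8.62, 8.59 and 8.70 in WT and 9.10, 8.88, 9.02 and 8.75 in Sel1l-/- mice. Sel1l-/- 4 lay just above WT 4, and the groups did not overlap. The difference of 0.32 (standard error 0.08) did not pass (limma adjusted p = 0.114), although it did with array weights (limma adjusted p = 0.0492). Mrpl49 read 10.22, 10.07, 10.12 and 10.01 in WT and 10.00, 9.90, 9.94 and 9.69 in Sel1l-/- mice. The groups were separated narrowly, between WT 4 and Sel1l-/- 1 (difference -0.22, limma adjusted p = 0.250). Mrpl41 gave -0.25 (limma adjusted p = 0.339), and within letter F it gave 0.06. Mrpl50 gave -0.19 (limma adjusted p = 0.310), and Mrpl45, which binds the ribosome to the inner membrane, also gave -0.19 (limma adjusted p = 0.328).

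Several members had tight replicates. Mrpl52 read 9.70 to 9.74 in WT and 9.80 to 9.84 in Sel1l-/- mice, without overlap, for a difference of 0.09 (95% interval -0.02 to 0.20). Mrpl9 was the eighth member without overlap, at 7.94 to 7.98 in WT and 7.98 to 8.10 in Sel1l-/- mice (difference 0.07). Mrpl58, a peptidyl-tRNA hydrolase of the large subunit that frees stalled ribosomes and was counted in no role group, differed by 0.14 (limma adjusted p = 0.418). The dim probe set of Mrpl21 read 6.02 on average, above the lower quartile of every array (4.33 to 4.37), and differed by -0.02 (95% interval -0.16 to 0.12).

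Of the 12 members with more than 1 probe set, 3 had a dimmer probe set whose difference had the other sign, and 0 of their 25 probe sets passed. The 3 were Mrpl12 (-0.03 and 0.03), Mrpl42 (-0.04 and 0.01) and Mrpl51 (-0.05 and 0.04), all close to 0. The second probe set of Mrpl42 read 3.84 on average, below the lower quartile of the arrays. In Mrpl10, Mrpl18, Mrpl27, Mrpl47, Mrps30 and Mrps5 the probe sets gave the same sign, with brighter values of 0.14, -0.08, 0.10, 0.09, -0.10 and 0.0028.

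The members varied together between mice of 1 genotype. Sel1l-/- 1 was the highest of the Sel1l-/- arrays in 57 of the 74 members (77.0%), where it was the highest in 31.3% of all genes. Sel1l-/- 4 was the lowest of its group in 46 members (62.2%), against 37.4% of all genes. Among WT mice, WT 1 was the highest in 37 members, against 28.1% of all genes, and WT 4 the lowest in 30 (40.5%), against 31.5%. Related lists showed parts of this pattern. Of the 19 genes of transfer RNA charging, WT 1 was the highest in 78.9%, Sel1l-/- 1 in 57.9% and Sel1l-/- 4 the lowest in 68.4%. Of the 15 translation factors, WT 1 was the highest in 73.3% and Sel1l-/- 4 the lowest in 66.7%. Of the nuclear respiratory chain genes, Sel1l-/- 1 was the highest in 58.7% and Sel1l-/- 4 the lowest in 72.0%. Among WT mice, however, WT 3 was the highest in 58.7% of these and WT 1 in only 21.3%. The cytosolic ribosomal proteins ran the other way, with Sel1l-/- 4 the highest of its group in 51 of 68. The median deviation of the members from their 8-array mean was 0.08, -0.01, 0.0007 and -0.04 in WT 1 to 4 and 0.09, -0.02, -0.03 and -0.09 in Sel1l-/- 1 to 4. The groups overlapped fully in this measure, and its span within a genotype was wider than the median difference between genotypes. The members' median difference was -0.07 without Sel1l-/- 1, -0.0021 without Sel1l-/- 4 and -0.0028 without WT 1.

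**Figure D3:**
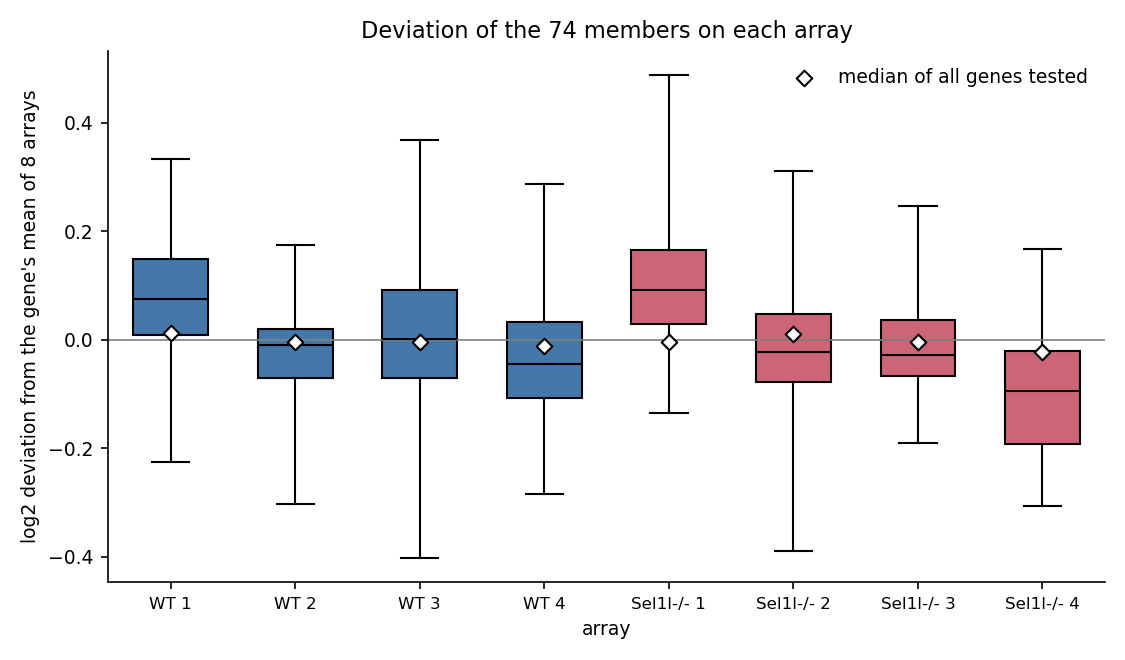
Log2 deviation of each of the 74 members from its own mean over 8 arrays, by array; boxes show quartiles and median, whiskers the full range, and diamonds the median of all genes. The members sit highest on Sel1l-/- 1 (median 0.09) and WT 1 (0.08) and lowest on Sel1l-/- 4 (-0.09), while the diamonds stay near 0.

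Cell type markers moved between the same mice. The median deviation of the 9 macrophage markers was -0.47, 0.12, -0.34 and 0.14 in WT 1 to 4 and -0.25, 0.14, 0.11 and 0.57 in Sel1l-/- 1 to 4, so it was lowest in WT 1 and highest in Sel1l-/- 4. All 9 macrophage markers had a difference above 0 and 0 passed, with a median of 0.36, and their mean log2 intensity was 9.71 to 10.5 in WT and 10.0 to 10.9 in Sel1l-/- mice. All 8 adipocyte markers had a difference below 0 and 0 passed, with a median of -0.12. The adipocyte median deviation was highest in WT 1 (0.18) and lowest in Sel1l-/- 4 (-0.34). The 6 markers of thermogenic fat had a median difference of 0.44, 0 passing. The 6 endothelial markers all lay below 0 with a median of -0.38, and Pecam1 fell (-0.39, limma adjusted p = 0.0290). The 5 fibroblast markers ran from a median deviation of -0.34 in WT 1 to 0.36 in Sel1l-/- 4 (median difference -0.01, 0 passing). The 4 mesothelial markers stood at 0.52 in WT 1, 0.69 in WT 3 and -0.66 in Sel1l-/- 4, and all 4 had a difference below 0 (median -0.35, 0 passing). The 4 lymphocyte markers measured also all lay below 0 (median -0.40, 0 passing). The part of any of these in the members' values was not tested.

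Other genes of mitochondrial translation gave 0 limma calls in each of 4 lists, with 2 higher and 2 lower at an unadjusted p under 0.05 over all 4. Of the 3 measured mitoribosome proteins named otherwise, Dap3, a GTP-binding protein of the small subunit, read 9.49 to 9.57 in WT and 9.28 to 9.41 in Sel1l-/- mice without overlap (difference -0.18, limma adjusted p = 0.160), Chchd1 gave 0.12 and Ptcd3 -0.06. Among 15 translation factors, Mrrf, which splits the ribosome after termination so that it can be used again, read 10.54 to 10.78 in WT and 10.27 to 10.47 in Sel1l-/- mice (difference -0.26, limma adjusted p = 0.135). Guf1, an elongation factor, read 8.40 to 8.52 and 8.57 to 8.71 (difference 0.19, limma adjusted p = 0.173). Both were without overlap, in opposite directions.

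Among 21 assembly factors, Mettl15, a methyltransferase of the small subunit's RNA, gave 0.21 (limma adjusted p = 0.203) and Fastkd2 0.21 (limma adjusted p = 0.405), and the list's median was 0.07. The 19 measured genes of charging mitochondrial transfer RNAs had a median of 0.05, with Gatb at -0.20 (limma adjusted p = 0.447) and Nars2 at 0.15 (limma adjusted p = 0.455). Of 16 genes that copy or transcribe mitochondrial DNA or regulate nuclear genes of mitochondria, 9 lay above 0, with a median of 0.02 and 0 limma calls (2 higher and 2 lower at an unadjusted p under 0.05). Of the 2 higher, Myc gave 0.33 (limma adjusted p = 0.331) and Polg2, the accessory subunit of the polymerase, 0.18 (limma adjusted p = 0.321). Gabpa, the ETS factor, gave 0.14 and Ssbp1, which binds single-stranded mitochondrial DNA, 0.15, both without overlap. Polg, the polymerase itself, gave -0.20, also without overlap (limma adjusted p = 0.222). Ppargc1a, a coactivator that drives the making of mitochondria, read 7.91, 7.20, 7.94 and 6.83 in WT and 7.26, 6.74, 6.73 and 6.36 in Sel1l-/- mice. It varied widely within both groups and did not pass (difference -0.70, limma adjusted p = 0.287). The messages that the mitochondrial ribosome translates were not analysed here.

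Beside these lists, the 75 nuclear respiratory chain genes had a median difference of -0.06, with 54 below 0 and a range of -0.49 to 2.92. They gave 1 higher limma call and 0 lower (3 higher and 9 lower at an unadjusted p under 0.05). Of all genes, 1.04% were higher limma calls, and 7.15% were higher and 7.85% lower at that unadjusted p. This list includes Cox8b, which was not the called gene (difference 0.85, limma adjusted p = 0.114). Cox8b was also counted among the markers of thermogenic fat. The 68 cytosolic ribosomal protein genes had a median of 0.01, with 28 below 0 and 0 calls (3 higher and 0 lower at an unadjusted p under 0.05). Of the mitochondrial ribosomal proteins 46 of 74, or 62.2%, lay below 0, where 51.2% of all genes did. Neither the difference between these lists nor that share was tested. With the code letter as a block the members' median was 0.10 and that of all genes 0.01. Only letter F held both genotypes, so those medians compare 1 WT with 2 Sel1l-/- mice. Centring used each array's median over the 18820 genes and not over all probe sets. That median was 6.98 to 7.02 in WT and 6.95 to 6.99 in Sel1l-/- mice. Centring raised the differences of all genes alike, to a median of 0.0004 for the members and 0.02 for all genes.

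**Figure D4:**
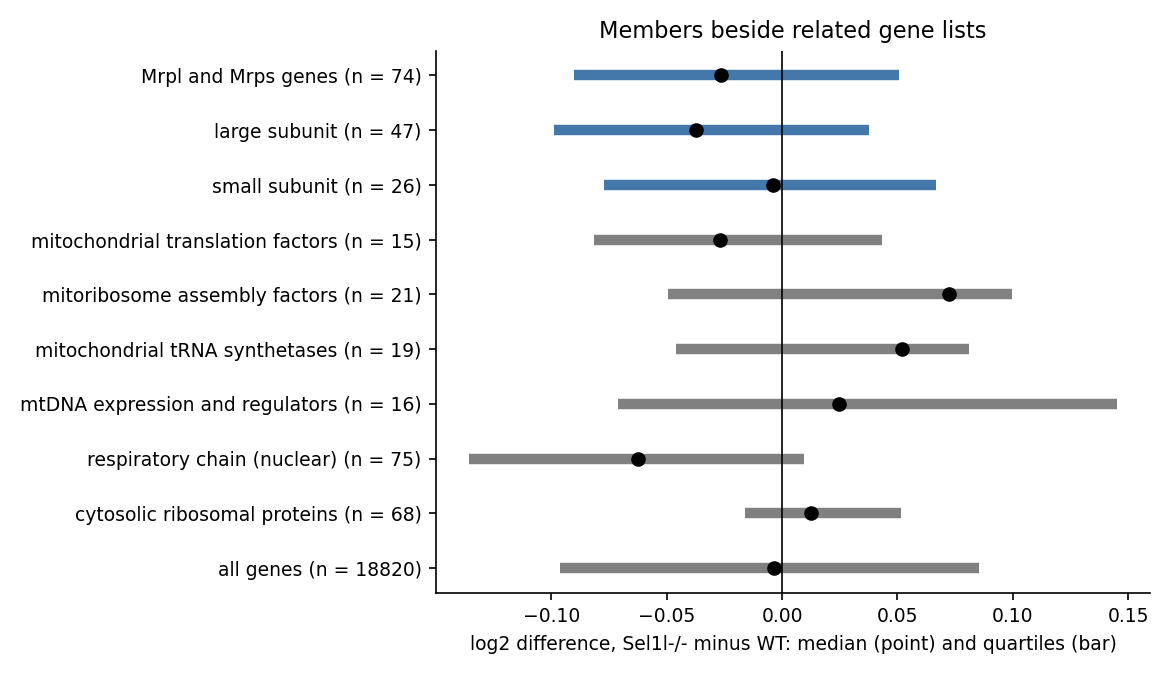
Median (point) and quartiles (bar) of the log2 difference for the members, their subunits, related lists and all genes, with the number of genes in brackets. The members' median of -0.03 lies between those of the respiratory chain (-0.06) and the cytosolic ribosomal proteins (0.01), and each bar spans values on both sides of 0.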

How the data were processed

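White adipose RNA of 8 mice was measured on 1-colour arrays. The deposited values are log2 intensities, processed by the authors with RMA per the submitters' processing notes. That the scale is log2 follows from the range of the values; the sources used here give no version, build or filter. RMA includes quantile normalization, which gives the arrays like distributions and so hides a shift shared by most genes. Of 35556 probe sets, 21218 had 1 gene symbol in the platform annotation, 1881 several and 12457 none. No value was missing, and no dim gene was left out.

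The comparison used lmFit and eBayes of limma 3.58.1 (R 4.3.3), after a test on simulated data. Its p-values are two-sided and adjusted by Benjamini-Hochberg over 18820 genes, with a threshold of 0.05, and the prior had 2.60 degrees of freedom. Intervals are limma's at 95%, not adjusted. The simulated data held independent noise and changes larger than any member's. That test therefore says nothing of differences as small as the members' or of variation shared between genes. The labels call the samples separate mice. The members and lists were chosen with earlier results of these data known. Named members were those past the threshold, the 3 smallest p in each role group, the 4 largest rises and falls, the highest and lowest mean, and those with several probe sets, which made 25. Mrpl9, Mrpl45, Mrpl52, Mrpl58, Mrps18a, Mrps18c, Mrps36, Gabpa, Myc, Polg2, Ssbp1, Pecam1 and the neighbours were named after their values were seen. RefSeq sequences came from GRCm38.p6, and no protein sequence was used here.

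The titles number mice 1 to 4 in both groups. Deviations of same-numbered mice correlated at 0.52, 0.11, 0.36 and 0.52 over all genes, so the replicate block treats equal numbers as pairs. No label states such a pairing, and it was judged on the same values that the block then tests. Unlike numbers reached 0.33 (WT 3 with Sel1l-/- 1, and WT 2 with Sel1l-/- 4, where WT 2's own pair gave 0.11). The 16 alternatives were array centring, blocks by replicate number and by letter and number of the mouse code, leaving out the dimmest 25% of genes, averaging probe sets, a trended robust variance, array weights, and leaving out each array. The sources used here do not explain the code.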

Additional observations from a re-analysis of the deposited data

Results flagged for a closer look

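Values of 1 mouse stood apart from the other 3 of its group in 2 of the 54 groups of 4 examined, over the 25 named members, Sel1l and the median of the members, and chance flags about 1 in 20 groups. Mrps21 read 11.77 in WT 3 against 11.42 to 11.46 in the other WT mice. Mrpl18 read 8.77 in WT 1 against 8.55 to 8.57.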

How the results depend on the processing

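The members that rose numbered 1, but 2 with the replicate number as a block (Mrps28 and Mrps18b) and 2 with array weights (Mrps28 and Mrpl54), 0 when blocked by code letter or code number, and 0 to 1 when 1 array was left out (0 without WT 1, WT 2 or Sel1l-/- 2). By limma 0 fell in the reported fit, where 6 were lower at an unadjusted p under 0.05 (7.85% of all genes were), and 0 fell in the 16 alternatives, for which unadjusted counts were not made. The members' median of -0.03 became 0.10 with the letter block, which compares only 1 WT with 2 Sel1l-/- mice. Calls lost with that block cannot be laid to the letter. Genes called over all 18820 were 324, but 725 with the replicate block, 566 with array weights, 20 with the letter block, 11 with the number block and 100 to 336 when 1 array was left out, which leaves fewer arrays to test. Sel1l lost its call with the letter block (-0.98) and the number block (-0.80). The pairing changed no other call of a named member.

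Of 400 alternative values of the 25 named members, 374 kept direction and side of the threshold. Blocking by replicate number, leaving out dim genes and the trended robust variance leave each difference unchanged, so they cannot turn a sign. In members whose groups do not overlap, leaving out 1 array, array weights and the code blocks cannot turn it either. The sign turned in 19 of the 400, over 8 members, of which 0 were called. With the letter block it turned for Mrpl12 (0.10), Mrpl18 (0.10), Mrpl21 (0.0131), Mrpl41 (0.0585), Mrpl42 (0.11), Mrpl51 (0.14) and Mrps30 (0.0718). Centring the arrays turned it for Mrpl12 (0.0018) and Mrpl21 (0.0062), but that setting moved all genes alike (median -0.0037 to 0.0232) and says nothing of these members. It turned with averaged probe sets for Mrpl12 (0.0043) and with array weights for Mrps5 (-0.0003). Leaving out 1 array gave -0.0723 to 0.0409 for Mrpl12, -0.0451 to 0.0125 for Mrpl21, -0.123 to 0.0106 for Mrpl51 and -0.061 to 0.0529 for Mrps5. With the letter block each value is only the difference of Sel1l-/- 1 and 2 from WT 4, the mice under letter F. The members' median deviation was -0.04 in WT 4, 0.09 in Sel1l-/- 1 and -0.02 in Sel1l-/- 2. The part of this in those turns was not tested, nor was the cause of the turns in the remaining settings.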
